A study of Mus musculus with 13 samples.

Results

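mmu-miR-375-3p and mmu-miR-7a-5p are a pair of mature microRNAs (miRNAs), the short RNAs that guide the silencing of matching messenger RNAs, and both are known for their abundance in the hormone-secreting cells of pancreatic islets. They are 2 of the 1354 miRNAs counted in plasma vesicles and of the 1164 counted in tumour cell vesicles, and 1066 miRNAs were in both tables. The pair was chosen by name with its counts and its difference between C26-bearing and control plasma already known, so those values are given as a description, and no test of the pair is used as evidence.

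The series covers 13 small RNA libraries of vesicles pelleted by ultracentrifugation. In 3 libraries the vesicles (TMVs) came from serum-free medium of C26 cells, a colon adenocarcinoma line of Balb/C origin, after 48 h of culture. A further 6 libraries came from plasma of Balb/C mice labelled cachectic (wasting), taken 14 days after C26 cells were injected under the skin. The last 4 came from plasma of Balb/C mice labelled healthy. Libraries are numbered within a group by the replicate number in their titles. No allele or drug is named for any group, and the sources used here give neither age nor sex. Control libraries 2 and 3 each have a pair of numbers in their description, with no word on what these mean. Nothing says that each library is a separate animal, so any spread below is a spread between libraries.

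miR-375 restrains insulin secretion and is needed for a normal mass of islet cells, and it is also made in gut and other epithelia and in the pituitary. miR-7 is a conserved regulator of neuroendocrine cells, known from islets, the pituitary and the brain, and it restrains growth signalling and the release of insulin. In plasma, miRNAs are carried in vesicles and in protein complexes that come from many tissues at once, so a plasma level has no single source by itself. Fewer releasing cells and less RNA released per cell cannot be told apart in such bulk samples.

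The sequences below show how far counts of the miR-7 family can be told apart. RefSeq (GRCm38.p6) holds a mature sequence matched by name for 1 of the 2 members, miR-7a-5p, shown with its paralogue miR-7b-5p and with the opposite arm of the Mir7-1 hairpin. Capitals mark the seed, bases 2 to 8 from the 5′ end, which directs target pairing.
miR-7a-5p: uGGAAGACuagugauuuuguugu
miR-7b-5p: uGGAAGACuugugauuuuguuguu
miR-7a-1-3p: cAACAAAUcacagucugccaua

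miR-7a-5p and miR-7b-5p share their seed, and no other of the 1679 mature mouse miRNA names in that reference has it. Over the 23 bases of miR-7a-5p the paralogue differs by 1 substitution, A10U, with positions counted from the 5′ end and the miR-7a-5p base first, and miR-7b-5p has 24 bases. Mature miR-7a-5p can come from either of 2 precursors that its counts do not separate. Mir7-1 is encoded on the minus strand of chromosome 13, at 58392779 to 58392886, in an intron of Hnrnpk. The plus strand holds Mir7-2 (chromosome 7, 78888277 to 78888373) and Mir7b (chromosome 17, 56242988 to 56243098). Mir375 is on the minus strand of chromosome 1, at 74900658 to 74900721. GENCODE M21 annotates no other gene over Mir375, Mir7-2 or Mir7b. These are GRCm38 positions, and the sources used here do not name the authors' build.

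The pair split between the 2 materials of the study. In TMVs, miR-7a-5p had 918, 770 and 1184 counts in libraries 1 to 3, while miR-375-3p had 0, 0 and 1. In plasma both were counted, and miR-375-3p had fewer counts than miR-7a-5p in 5 of 6 C26-bearing libraries and more in all 4 control libraries.

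miR-375-3p had 3, 12, 8, 0, 19 and 18 counts in C26-bearing libraries 1 to 6, and 202, 134, 441 and 3 counts in control libraries 1 to 4. Total counts differ widely between libraries, from 9828 to 76376 in C26-bearing plasma and from 7962 to 131385 in control plasma, so levels are given as CPM (counts divided by library size, times 1e6, after correction of the size with TMM factors). The library size used there sums only the 130 miRNAs that passed a filter on low counts, not all counts. On that scale miR-375-3p stood at 161, 150, 190, 0, 600 and 630 CPM in C26-bearing libraries 1 to 6. In control libraries 1 to 4 it stood at 1775, 2065, 2489 and 518 CPM. The 6 C26-bearing libraries all lay below control libraries 1 to 3, but C26-bearing libraries 5 and 6 lay above control library 4, so the groups overlapped. Control replicate 4 is the shallowest plasma library and its value rests on 3 counts. The 0 counts of C26-bearing library 4 allow a level of up to 305 CPM, taking 3 counts as the limit. The group means were 288 ± 261 CPM in C26-bearing mice and 1712 ± 848 CPM in controls (SD, n = 6 and 4).

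miR-7a-5p went the other way. It had 18, 54, 61, 15, 14 and 25 counts in C26-bearing libraries 1 to 6, and 38, 23, 106 and 1 counts in control libraries 1 to 4. Its level was 965, 677, 1449, 1526, 442 and 875 TMM-scaled CPM in C26-bearing libraries 1 to 6, against 334, 354, 598 and 173 CPM in control libraries 1 to 4. In 5 of 6 C26-bearing libraries the level was above every control library, and C26-bearing library 5 lay within the control range. Mean levels were 989 ± 427 CPM in C26-bearing mice and 365 ± 176 CPM in controls (SD, n = 6 and 4). The lowest control value, in replicate 4, is 1 count.

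**Figure D1:**
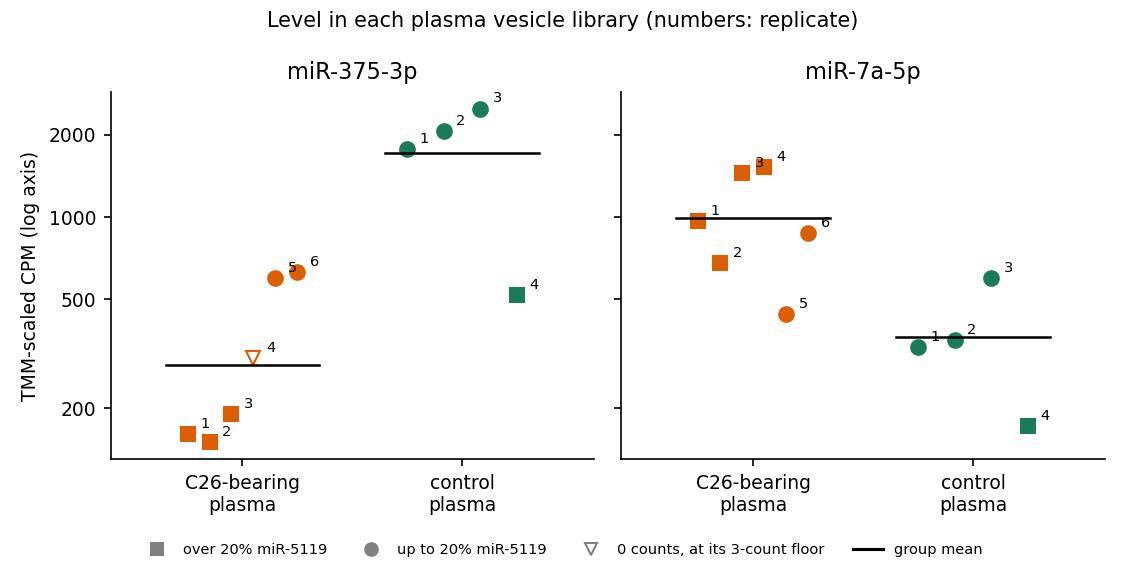
Levels of miR-375-3p (left) and miR-7a-5p (right) in TMM-scaled CPM on a log axis, 1 point per plasma library with its replicate number, squares for libraries with over 20% of counts in miR-5119, a black line for the group mean and an open triangle for 0 counts drawn at its limit of 305 CPM. miR-375-3p is at 630 CPM or less in the C26-bearing libraries and at 1775 or more in control libraries 1 to 3. Control library 4, at 518 CPM on 3 counts, lies within the C26-bearing range. miR-7a-5p is at 442 or more in C26-bearing libraries and at 598 or less in controls.

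In the fit across the 130 miRNAs that passed the filter on low counts, the log2 fold change (C26-bearing over control) was -2.54 (SE 0.779) for miR-375-3p and 1.36 (SE 0.551) for miR-7a-5p. Ordered from the most negative to the most positive fold change, miR-375-3p was number 2 of 130 and miR-7a-5p number 110. By the quasi-likelihood test of edgeR, adjusted after Benjamini-Hochberg at 0.05, 0 of 130 miRNAs were called (0%), so 0 of the pair were. At an unadjusted p under 0.05 edgeR had 15 of 130 (11.5%), of which 6 were lower in C26-bearing plasma (4.62%) and 9 higher (6.92%). DESeq2 called 4 of 130 (3.08%) and limma voom with quality weights 17 of 130 (13.1%). Both called miR-375-3p (DESeq2 adjusted p = 0.0147, limma voom adjusted p = 0.00645), and neither called miR-7a-5p. Of all 130, 7 had at least 5 of 6 C26-bearing libraries above every control (5.38%), as miR-7a-5p did, and 17 had at least 4 of 6 below every control (13.1%), as miR-375-3p did. Because the pair was chosen with this comparison known, nothing is read from its place in these counts.

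The log2 ratio of the pair's counts within a library does not depend on how libraries are scaled. With 0.5 added to each count, the log2 ratio of miR-375-3p to miR-7a-5p was -2.40, -2.12, -2.86, -4.95, 0.43 and -0.46 in C26-bearing libraries 1 to 6, against 2.39, 2.52, 2.05 and 1.22 in control libraries 1 to 4. All C26-bearing ratios lay below all control ratios, where that of control library 4 rests on 3 and 1 counts. Because the pair was chosen with its difference known, nothing is read from this separation. The mean log2 ratio was -2.06 ± 1.89 over C26-bearing libraries and 2.05 ± 0.58 over controls (SD, n = 6 and 4), a difference of -4.11. The ratio of C26-bearing library 4 rests on 0 and 15 counts, so its size depends on the 0.5 added. The difference was -3.84 with 1 added to each count, -4.61 with 0.1 added and -3.53 without that library. Library preparation can capture 2 miRNAs with different efficiency, so a ratio of counts is not a ratio of molecules, and only its change between libraries is described.

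Written as a share, miR-375-3p held 14.3%, 18.2%, 11.6%, 0%, 57.6% and 41.9% of the pair's counts in C26-bearing libraries 1 to 6, and 84.2%, 85.4%, 80.6% and 75.0% in control libraries 1 to 4. These shares rest on 15 to 69 counts in the C26-bearing libraries and on 240, 157, 547 and 4 counts in control libraries 1 to 4. Exact 95% binomial (Clopper-Pearson) intervals, which cover counting error only, reached at most 36.3% in C26-bearing libraries 1 to 4. They ran from 39.2% to 74.5% in C26-bearing library 5 and from 27.0% to 57.9% in C26-bearing library 6. In control libraries 1 to 3 they lay between 77.1% and 90.5%, above the intervals of all 6 C26-bearing libraries. The interval of control library 4 ran from 19.4% to 99.4%, so its 4 counts do not separate it from the C26-bearing libraries. In TMVs miR-375-3p held 0%, 0% and 0.0844% of the pair's counts in libraries 1 to 3.

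**Figure D2:**
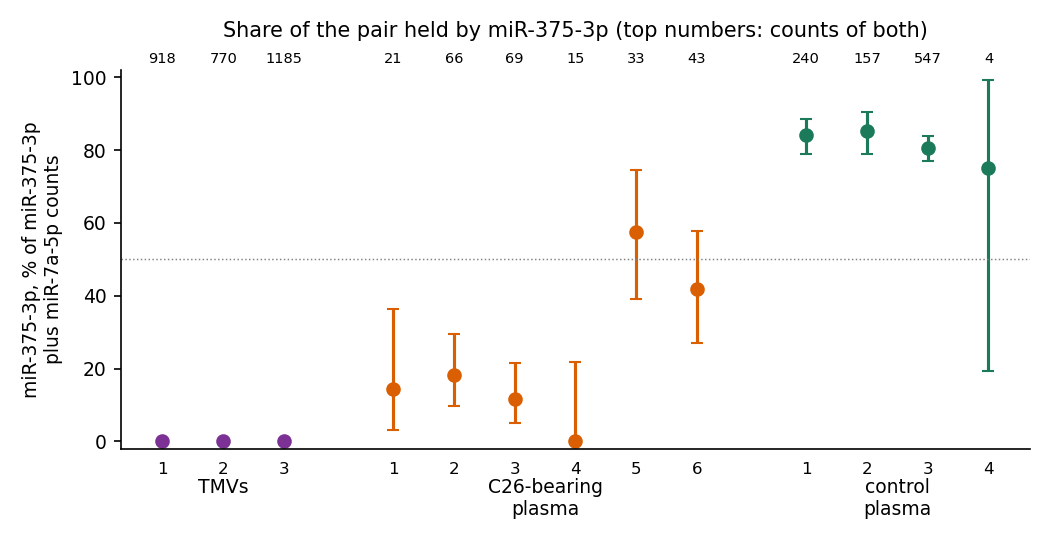
Share of the summed miR-375-3p and miR-7a-5p counts held by miR-375-3p (vertical axis, percent) in each library of TMVs, C26-bearing plasma and control plasma, with exact 95% binomial intervals; numbers below the points are replicates and numbers above are counts of the pair. TMVs sit at or near 0%, C26-bearing plasma between 0% and 57.6% and control plasma between 75.0% and 85.4%, where control library 4 has 4 counts.

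The plasma libraries also differ in miR-5119, a miRNA that held 26.6% to 58.7% of counts in C26-bearing libraries 1 to 4 and 46.1% in control library 4, against at most 2.55% in the other 5. The libraries rich in it have the consecutive sheet numbers 18 to 22 in the sample descriptions. The levels of miR-375-3p differed along this division as well as between the groups, and those of miR-7a-5p had no single direction along it. Among libraries poor in miR-5119, miR-375-3p stood at 600 and 630 CPM in the 2 C26-bearing libraries and between 1775 and 2489 CPM in the 3 controls. Among libraries rich in it, miR-375-3p was at 0 to 190 CPM in the 4 C26-bearing libraries, against 518 CPM in the single control. Both comparisons had the C26-bearing libraries lower, and in each group the libraries rich in miR-5119 had the lower values. The log2 fold change of miR-375-3p was -1.78 (SE 0.524) within the poor libraries and -1.80 (SE 0.624) with a term for the division, each smaller in size than without it. Within the rich libraries miR-375-3p did not pass the filter on low counts.

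miR-7a-5p was at 442 and 875 CPM in the 2 C26-bearing libraries poor in miR-5119 and between 334 and 598 CPM in the 3 controls poor in it, so these overlapped. Within them its log2 fold change was 0.60 (SE 0.694). In libraries rich in miR-5119 it was at 677 to 1526 CPM in the 4 C26-bearing libraries and at 173 CPM in the single control, a log2 fold change of 2.67 (SE 1.27) that assumes this lone control varies like the other libraries. The 3 highest of its 6 levels in C26-bearing plasma were in libraries rich in miR-5119, but the rich library 2 (677 CPM) lay below the poor library 6 (875 CPM). In controls the single rich library had the lowest level. The log2 ratio of miR-375-3p to miR-7a-5p was -0.46 and 0.43 in the C26-bearing libraries poor in miR-5119 and 2.05 to 2.52 in the controls poor in it. Among rich libraries it was -4.95 to -2.12 in C26-bearing plasma and 1.22 in the single control. The part of miR-5119 in these differences was not tested.

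Against all counts of a library, miR-7a-5p was a larger component of TMVs than of plasma vesicles. It held 0.627%, 0.685% and 0.694% of counts in TMV libraries 1 to 3 and ranked 39, 31 and 32 there by abundance. In plasma vesicles of C26-bearing mice it held 0.0895% ± 0.0348, against 0.0412% ± 0.0289 in those of controls (SD, n = 6 and 4), with ranks of 52 to 93 and 73 to 163. Without miR-5119 in the totals these shares became 0.142% ± 0.0820 for C26-bearing mice and 0.0441% ± 0.0259 for controls, beside 0.669% ± 0.0367 for TMVs (SD, n = 3). miR-375-3p held 0.0279% ± 0.0273 of counts in plasma of C26-bearing mice, against 0.193% ± 0.126 in that of controls. In TMV libraries 1 and 2 its 0 counts allow up to 0.00205% and 0.00267%. TMVs and plasma were counted in separate tables and the labels name no sequencing run, so no test was made between them.

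The miR-7b paralogue and the opposite arms were at or near 0. miR-7b-5p, which shares the miR-7 seed, had 0 counts in all 10 plasma libraries and 0, 0 and 1 in TMVs. The opposite arm miR-7a-1-3p had 3 counts in C26-bearing library 3 and 0 in the other plasma libraries and in TMVs. The opposite arm miR-375-5p had 1 count, in C26-bearing library 2. Adding miR-7b-5p to miR-7a-5p therefore left every plasma value as it was. How the authors' counting assigned reads that end before or miss the differing base is not known from the sources used here.

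The islet name was checked against other miRNAs of islet and neuroendocrine cells. Of 14 listed, 12 had a plasma count and 4 passed the filter on low counts: the pair itself, miR-29a-3p and miR-30d-5p, both of which many tissues make. The other 2 had log2 fold changes of 0.16 (SE 0.520) for miR-29a-3p and -0.64 (SE 0.478) for miR-30d-5p, and neither was called. Among the more restricted members, miR-153-3p, a neuronal and islet miRNA, had 0 counts in every plasma library. miR-184-3p, which is induced in islet beta cells by fasting in mice, had 2, 1, 0, 0, 1 and 13 counts in C26-bearing libraries 1 to 6 and 15, 1, 3 and 0 in control libraries 1 to 4. miR-183-5p, of the sensory and neuroendocrine miR-183 cluster, had 1 to 6 counts in C26-bearing libraries and 32, 24, 45 and 1 in control libraries 1 to 4. Its cluster partner miR-182-5p had 3 to 11 counts in C26-bearing libraries and 9, 4, 12 and 1 in control libraries 1 to 4. miR-132-3p, induced by activity in neurons, had 0 or 1 count in C26-bearing libraries and 6, 9, 3 and 0 in control libraries 1 to 4. Scaled for library size, miR-184-3p averaged 101 ± 178 CPM in C26-bearing mice and 41.0 ± 61.0 CPM in controls. For miR-182-5p these means were 181 ± 116 and 95.3 ± 52.2 CPM, so both were higher in C26-bearing plasma. Lower means were those of miR-183-5p (101 ± 62.0 against 269 ± 81.3 CPM) and miR-132-3p (7.35 ± 12.9 against 52.1 ± 61.8 CPM). miR-96-5p had 4 plasma counts, all in C26-bearing libraries. Some of these islet markers were thus at or near 0 and miR-7a-5p was also counted in tumour cell vesicles, so the pair is called here by its members' names, and an islet source was not tested.

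Markers of other cells are given beside the pair, and the edgeR fit above called 0 of them. Of 8 listed gut epithelial miRNAs 4 were tested, and all 4 had a log2 fold change below 0, as did 64 of all 130. Of these 4, 0 were called by edgeR (0% of all 130 were). voom called miR-215-5p (limma voom adjusted p = 0.0269), where it called 17 of all 130 (13.1%). The median log2 fold change of these 4 was -1.03, against 0.01 over all 130 tested. miR-215-5p, an intestinal miRNA, averaged 2635 ± 1205 CPM in C26-bearing mice, against 7522 ± 3470 CPM in controls (log2 fold change -1.52, SE 0.465). miR-200a-3p, which maintains the epithelial state, had -1.09 (SE 0.508), miR-192-5p, of gut and liver, -0.98 (SE 0.604), and its cluster partner miR-194-5p -0.90 (SE 0.587). The summed level of the list ran from 7037 to 23855 CPM in C26-bearing plasma and from 14687 to 42101 CPM in control plasma, so it overlapped. Of its members at low counts, miR-200b-3p and miR-200c-3p did not share the direction, with mean levels of 228 ± 110 and 314 ± 474 CPM in C26-bearing mice and 141 ± 75.7 and 54.6 ± 63.1 CPM in controls. The part of gut epithelium in the miR-375-3p difference was not tested.

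Of the liver list of 2, miR-122-5p, the dominant miRNA of hepatocytes, was tested, with a log2 fold change of -1.92 (SE 0.819). It had no edgeR call after the filter on low counts and a call without that filter (edgeR adjusted p = 0.0103), where 4 of 955 miRNAs were called. Its level was 41783 ± 30482 CPM in C26-bearing mice and 158043 ± 107745 CPM in controls. The summed liver list ran from 4607 to 84804 CPM in C26-bearing plasma and from 56225 to 282507 CPM in controls, and the part of liver in the miR-375-3p difference was not tested. The acinar miRNAs of the exocrine pancreas, which surrounds the islets, had few counts. miR-217-5p had 8, 6, 19, 0, 0 and 0 counts in C26-bearing libraries 1 to 6 and 3, 0, 15 and 0 in control libraries 1 to 4. At 429 and 451 CPM in C26-bearing libraries 1 and 3 it was above miR-375-3p there. miR-216b-5p had at most 8 counts in a library and miR-216a-5p 1 count in all. Over all libraries, those with 0 counts included, miR-217-5p averaged 159 ± 220 CPM in C26-bearing plasma and 27.8 ± 39.9 CPM in controls. The one tested member of that list, miR-148a-3p, which is abundant well beyond the pancreas, showed -0.71 (SE 0.509) on the log2 scale. The summed list, nearly all miR-148a-3p, ran from 37583 to 140822 CPM in C26-bearing plasma and from 86225 to 124149 CPM in controls.

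Neuronal markers differed widely in plasma. miR-124-3p, the leading miRNA of neurons, and miR-137-3p and miR-219a-5p had 0 counts in all 10 plasma libraries. Of 10 listed, 7 had a plasma count and miR-128-3p alone was tested, with a log2 fold change of -0.69 (SE 0.795). miR-218-5p had 0 to 13 counts in C26-bearing libraries and 2 to 25 in controls, and miR-129-5p 0 to 5 and 0 to 10. The summed neuronal list, mostly miR-128-3p, ran from 1592 to 17135 CPM in C26-bearing plasma and from 2765 to 16061 CPM in controls. In TMVs, miR-9-5p had between 316 and 589 counts and miR-218-5p between 816 and 1445, while miR-124-3p, miR-137-3p and miR-219a-5p had 0 in all 3 libraries and miR-138-5p had 7, 5 and 7.

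Blood cell miRNAs lay on both sides of 0. The red cell list had all 4 members tested, 3 below 0, 0 called and a median log2 fold change of -0.15. Within it miR-451a had -0.28 (SE 0.462), miR-486a-5p -0.03 (SE 1.1), miR-144-3p -1.13 (SE 0.539) and miR-16-5p 1.30 (SE 0.901). Its summed level ran from 36237 to 594327 CPM in C26-bearing plasma and from 82246 to 255793 CPM in controls. The platelet and leukocyte list had all 6 tested, 6 above 0, 0 called and a median of 1.31. Over all 130 tested, 64 were below 0 and 66 above, with a median of 0.01. miR-126a-5p had 3.23 (SE 1.38), miR-223-3p 2.27 (SE 1.72), miR-142a-3p 1.98 (SE 0.914), miR-150-5p 0.65 (SE 0.910), miR-126a-3p 0.37 (SE 0.374) and miR-142a-5p 0.05 (SE 0.379). Its summed level ran from 7069 to 33884 CPM in C26-bearing plasma and from 11758 to 13477 CPM in controls. Levels of miR-223-3p differed along the miR-5119 division. They were 203 to 1466 CPM in C26-bearing libraries 1 to 4 and 691 CPM in control library 4, all rich in miR-5119. In the libraries poor in it they were 0 to 61.5 CPM. Not all members were divided in this way, as miR-126a-5p had 0 CPM in control library 4. The parts of blood cells and of miR-5119 in the miR-7a-5p difference were not tested.

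**Figure D3:**
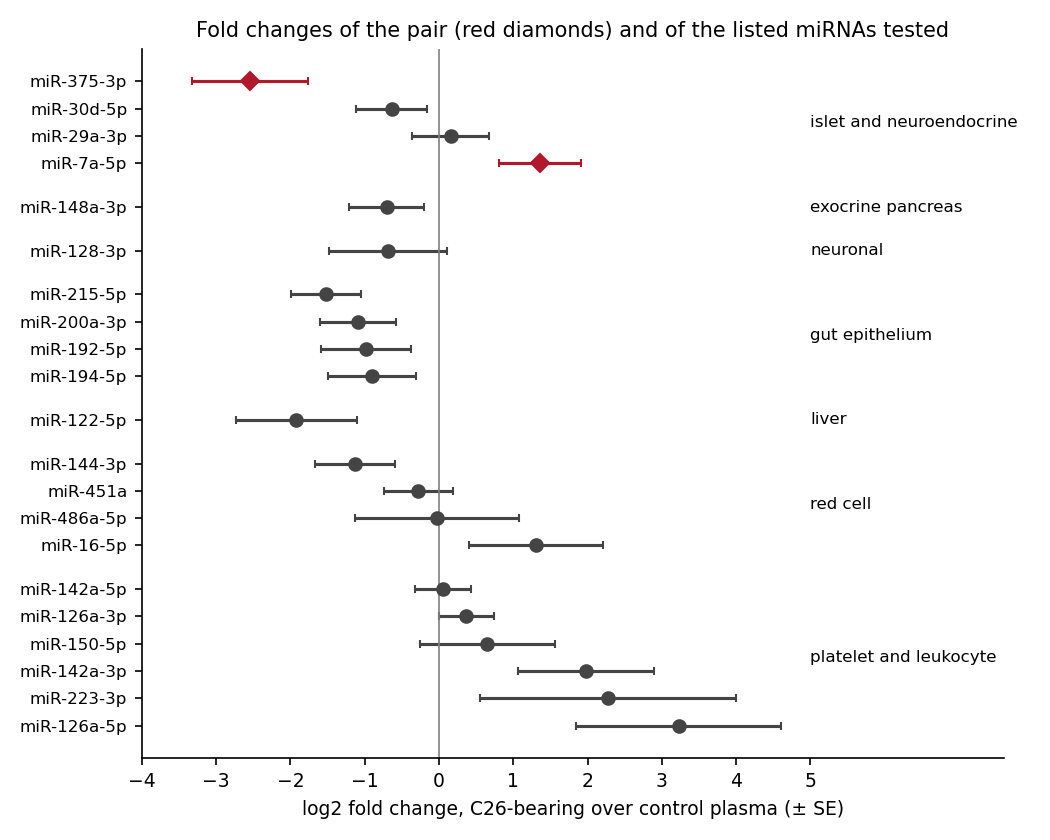
Log2 fold change of C26-bearing over control plasma (horizontal axis, bars ± SE from the edgeR fit) for the pair (red diamonds) and the tested members of 7 marker lists. miR-375-3p at -2.54 and miR-7a-5p at 1.36 lie on opposite sides of 0, with the gut and liver miRNAs below 0 and the 6 platelet and leukocyte miRNAs above 0.

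The miRNAs whose levels followed each member most closely over the 10 plasma libraries were different. Likeness was the Spearman correlation of log2 CPM with each of the other 129 tested miRNAs, given as a description, since all points share the groups, the miR-5119 division and a wide range of depth. Most like miR-375-3p were miR-1964-3p (rho 0.82), miR-486a-3p (0.82), miR-744-5p (0.77), miR-671-3p (0.77) and miR-423-5p (0.76). Their log2 fold changes ran from -1.63 to -0.29. After each library's deviation from its group mean was taken, their correlations with miR-375-3p were 0.80, 0.85, 0.58, 0.84 and 0.77 in the same order, so they also followed it within groups. Like miR-375-3p, these levels were below their mean in C26-bearing libraries 1 to 4, which are rich in miR-5119. They were above it in C26-bearing libraries 5 and 6 as well as in control libraries 1 to 3.

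Most like miR-7a-5p were let-7a-5p (rho 0.75), let-7i-5p (0.71), miR-21a-5p (0.66), miR-126a-5p (0.61) and miR-17-5p (0.58). As deviations from the group means, these correlations were 0.07, 0.38, 0.14, 0.41 and 0.41, so let-7a-5p and miR-21a-5p followed it little within groups. In TMVs, let-7i-5p held 8.14% of counts, miR-21a-5p 7.90% and let-7a-5p 1.29%, while miR-17-5p held 0.0449% and miR-126a-5p 0.000720%. miR-375-3p and miR-7a-5p themselves had a correlation of -0.60, which placed miR-375-3p number 125 of 129 in likeness to miR-7a-5p.

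**Figure D4:**
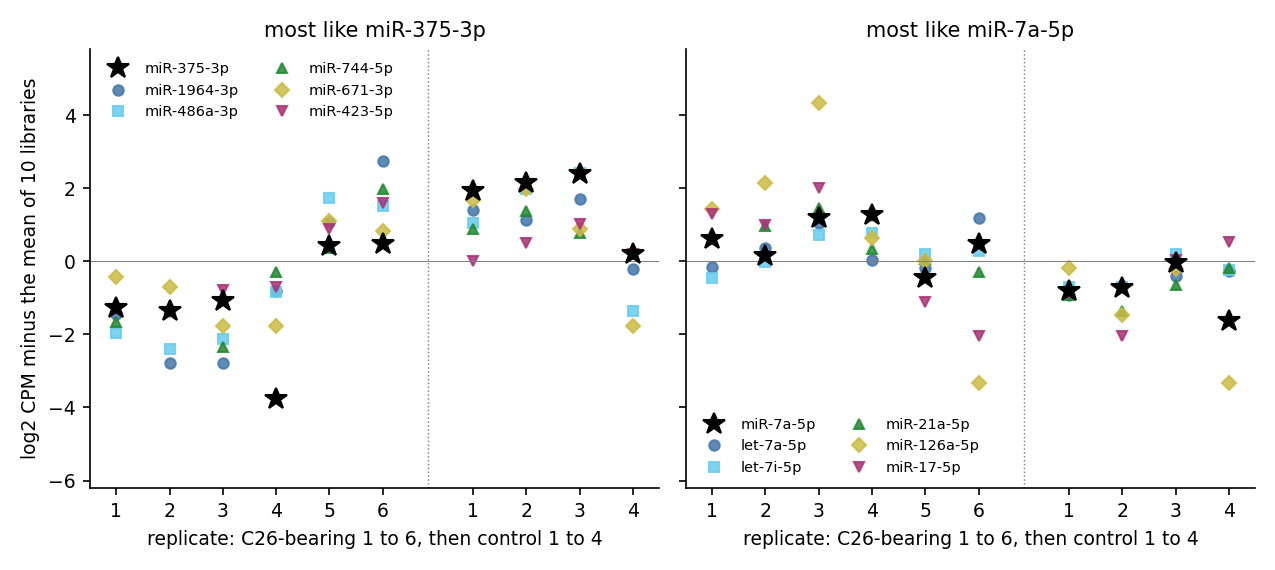
Log2 CPM minus the mean of the 10 plasma libraries (vertical axis) for miR-375-3p and its 5 most alike miRNAs (left) and for miR-7a-5p and its 5 (right), by library. The left group is low in C26-bearing libraries 1 to 4. It is above its mean in C26-bearing libraries 5 and 6 and in control libraries 1 to 3, with control library 4 on both sides. On the right miR-7a-5p is above its mean in 5 of 6 C26-bearing libraries.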

How the data were processed

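The authors deposited unscaled read counts, 1 whole number per mature miRNA and library, in 1 table for TMVs and 1 for plasma. Per the submitters' processing notes, bcl2fastq and cutadapt 1.10 were used; for the aligner, counting tool, miRNA annotation and genome build, nothing is given in the sources used here. Groups and replicate numbers come from sample titles. The members and lists were chosen with earlier results of these data known.

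Plasma counts were filtered with filterByExpr (minimum count 10, 130 miRNAs kept), scaled with TMM factors and fitted with edgeR 4.0.16 (robust quasi-likelihood, Benjamini-Hochberg at 0.05) in R 4.3.3, on 6 C26-bearing and 4 control libraries. SE is the size of the fold change over the root of F. The fit was tested on simulated data. Alternatives used DESeq2 1.42.0, limma 3.58.1, other scalings and filters, and other sets of libraries. The named miRNAs are the pair, its other arms, the tested members of each list and the 5 most alike by Spearman correlation (log2 CPM with a prior count of 2). Python 3.11.15 with scipy 1.17.1 gave intervals and ratios. A count of 0 is taken as up to 3 counts, and intervals and limits cover counting error alone, because PCR copies of a molecule cannot be recognised here.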

Additional observations from a re-analysis of the deposited data

How the results depend on the processing

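The log2 fold change of miR-375-3p was below 0 in all 25 alternatives that gave a value (-3.79 to -1.78) and that of miR-7a-5p above 0 in all 26 (0.60 to 2.67). These alternatives reuse the same libraries, and the pair was chosen with its difference known. Nothing is therefore read from the shared signs or from calls of the pair. Adding miR-7b-5p, with 0 plasma counts, could change no value, and leaving out robust estimation changed neither fold change. With each plasma library left out in turn the fold changes ran from -3.00 to -2.33 for miR-375-3p and from 1.13 to 1.66 for miR-7a-5p. The miR-7a-5p value moved by more than the spread between libraries within those poor in miR-5119 (0.60) and within those rich in it (2.67). The difference in log2 ratio was below 0 in all 17 alternatives, from -4.61 to -3.53 with each library left out, and shrank to -2.34 within libraries poor in miR-5119. The median of the islet list was -0.24 in the main fit and 1.56 within libraries rich in miR-5119, which hold 1 control. miR-375-3p did not pass the filter on low counts there, so the 2 medians cover different members. What else changed the median was not tested. Within libraries rich in miR-5119, which hold 1 control, no number of calls is given. The number of miRNAs called was 4 of 955 without a filter on low counts, 4 of 130 with DESeq2, 17 of 130 with voom and 2 of 130 with the miR-5119 term. With each library left out the number called was 0 to 1, of 103 to 156 tested (1, miR-455-5p, without C26-bearing library 2 and without C26-bearing library 3). With a replicate block it was 0, with fold changes of -3.79 for miR-375-3p and 1.55 for miR-7a-5p; same-numbered libraries had correlations of -0.37, -0.29, -0.30 and 0.16 in their deviations from group means, so they were not treated as pairs. The miR-7a-5p share in TMVs was 0.656% to 0.690% with each TMV library left out, an alternative chosen after seeing the data. Depth limits both: C26-bearing libraries held 0 to 19 counts of miR-375-3p, and control library 4 held 3 of it and 1 of miR-7a-5p. miR-375-3p was among those called with DESeq2 and with voom. Of the other listed miRNAs, 1 was called without a filter on low counts (miR-122-5p) and 1 with voom (miR-215-5p), against 0 in the edgeR fit reported.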
